A study of Mus musculus with 45 samples.

Results

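The genes described here encode 4 groups of RNA splicing regulators, the epithelial splicing regulatory proteins (Esrp), the serine and arginine rich splicing factors (Srsf), the heterogeneous nuclear ribonucleoproteins (Hnrnp) and the subunits of splicing factor 3 (Sf3a and Sf3b). They were taken as the protein-coding genes whose mouse symbol starts with one of these names followed by a number, or by any letters for Hnrnp. Of 42 such genes, 41 passed the read minimum, over 5 reads in 6 or more out of 45 libraries, and stood among the 14020 genes tested, namely 2 Esrp, 10 Srsf, 20 Hnrnp, 3 Sf3a and 6 Sf3b genes. The kept gene closest to the read minimum was Srsf9, which passed it in 19 libraries, and the gene left out was Srsf12, which passed it in 0.

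The libraries were made by Smart-seq2 from tuft cells, chemosensory cells of the gut lining, sorted as EpCAM+ Siglec-F+ cells from the small intestine of male C57BL/6J mice housed at thermoneutrality. The methods of the study write these cells as CD45+ but also say that CD45 served to leave cells out. Their CD45 status is therefore not settled here. Mice were fed a reference diet with 10% fat (RFD) or a high fat diet with 60% fat (HFD). The library titles form an STF set, with 11 RFD and 11 HFD libraries, and an LTF set, with 11 RFD and 12 HFD libraries. A library is called a mouse here by its number in the title, though no label says whether cells were pooled, and p-values measure the spread between these libraries. The methods of the study describe mice sharing cages, with a cage of each group ended on each day. No label gives the cage or the day, so libraries of cage-mates were treated as independent and the spread between cages was not measured. Strain, sex and housing were shared by all groups, and the methods of the study give an age of 5 weeks on arrival. The labels give 9 weeks of feeding for all 45 libraries, whereas the methods of the study describe a shorter and a longer feeding period, so the sets are named here only by their titles and no length of feeding is attached to either.

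Before translation, introns are cut out of a transcript by the spliceosome, which recognises the branch site through the U2 particle and its SF3A and SF3B subunits. SR proteins bind mostly within exons and favour their inclusion, many hnRNPs bind the same transcripts and favour skipping, and the balance between them sets which exons are kept. ESRP1 and ESRP2 are made in epithelial cells, where they keep the epithelial forms of transcripts such as those of Fgfr2 and Cd44. Many SR protein and hnRNP genes also limit their own level by splicing in an exon that sends the transcript to nonsense-mediated decay. In the GENCODE M21 annotation 20 of the 41 members had a transcript marked for such decay, including 9 of 10 Srsf genes, 10 of 20 Hnrnp genes, Sf3b1 and 0 of 2 Esrp genes, against 28.4% of 12544 protein-coding genes tested. Members also had more annotated transcripts, a median of 7 per gene against 5, and the comparison was not adjusted for this. The tables hold 1 value per gene, so productive and decay transcripts, and exon choice itself, cannot be told apart in them.

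The promoters are shown for members that passed the test in the STF set, from 250 bases before to 50 after the start of the transcript, because these 4 genes each passed and their start regions can be set beside each other. They come from RefSeq on GRCm38.p6, where 35 of the 41 members had an entry, and Esrp1, Esrp2, Hnrnpul2, Hnrnpll, Sf3b4 and Sf3b5 did not. Hnrnpa2b1 had 2 entries and Hnrnph1 had 5, of which the one nearest to the annotated gene start is printed. Sequences run 5′ to 3′ along the gene, and capitals mark matches on either strand to any of the 8 motifs searched, namely TATAAA for the core promoter box of that name, CCAAT for the CCAAT box, GGGCGG for the GC box, TGACGT for the core of the cAMP response element, the NRF1 site, CCGGAAG for an ETS site, CACGTG for the E box and TTTCGCGC for an E2F site.
Srsf6 promoter, chr2:162931258-162931557 (plus strand): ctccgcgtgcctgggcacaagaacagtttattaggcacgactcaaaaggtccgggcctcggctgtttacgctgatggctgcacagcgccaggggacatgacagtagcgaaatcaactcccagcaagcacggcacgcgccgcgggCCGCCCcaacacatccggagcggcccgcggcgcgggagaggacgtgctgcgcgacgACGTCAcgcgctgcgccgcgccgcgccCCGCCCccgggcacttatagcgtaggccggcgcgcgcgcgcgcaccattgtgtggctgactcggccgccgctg
Hnrnpa2b1 promoter, chr6:51469845-51470144 (minus strand): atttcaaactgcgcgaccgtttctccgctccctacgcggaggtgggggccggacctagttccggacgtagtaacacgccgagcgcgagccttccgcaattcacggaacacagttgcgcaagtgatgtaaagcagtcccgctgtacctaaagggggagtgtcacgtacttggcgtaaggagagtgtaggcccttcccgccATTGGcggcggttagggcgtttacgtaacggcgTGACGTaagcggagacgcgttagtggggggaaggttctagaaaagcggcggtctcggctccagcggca
Hnrnph1 promoter, chr11:50376740-50377039 (plus strand): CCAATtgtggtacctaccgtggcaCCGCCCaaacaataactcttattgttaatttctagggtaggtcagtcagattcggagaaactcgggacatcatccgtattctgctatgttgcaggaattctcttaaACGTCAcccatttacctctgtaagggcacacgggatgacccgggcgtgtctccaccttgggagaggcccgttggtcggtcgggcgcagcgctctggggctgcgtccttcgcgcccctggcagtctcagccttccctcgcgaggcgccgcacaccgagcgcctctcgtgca
Hnrnpa1 promoter, chr15:103240147-103240446 (plus strand): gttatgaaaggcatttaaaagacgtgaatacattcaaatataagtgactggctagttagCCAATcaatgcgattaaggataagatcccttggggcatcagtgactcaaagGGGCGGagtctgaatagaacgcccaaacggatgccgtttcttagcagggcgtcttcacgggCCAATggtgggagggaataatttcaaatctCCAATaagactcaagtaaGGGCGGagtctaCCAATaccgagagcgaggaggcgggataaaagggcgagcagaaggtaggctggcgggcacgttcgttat
The letters TGACGT or their reverse complement were found in the Srsf6, Hnrnpa2b1 and Hnrnph1 promoters shown and not in that of Hnrnpa1. Over all 48 promoter entries of members, 18.8% held TGACGT, against 10.9% of 13123 entries of tested genes and 7.51% of all 32851 entries. CCGGAAG stood in 35.4% of member entries, in 16.7% of those of tested genes and in 8.86% of all, and GGGCGG in 77.1%, 59.2% and 35.7%. CCAAT was found in 50% of member entries, 38% of those of tested genes and 37.4% of all, and the Hnrnpa1 promoter held 4 copies. TATAAA was found in 10.4%, 7.88% and 13.6%, CACGTG in 10.4%, 9.7% and 7.15%, the NRF1 site in 2.08%, 1.94% and 0.971%, and TTTCGCGC in 0%, 0.587% and 0.323%. The member promoters were rich in CpG, with a median of 27.5 per 300 bases against 19 for tested genes and 7 for all entries, and members with several entries share sequence between them. These matches describe letters in the window and not binding.

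Library totals ran from 189340 to 4690213 reads, and the 41 members together took a median of 0.248% of the reads in STF RFD mice, 0.385% in STF HFD mice, 0.257% in LTF RFD mice and 0.361% in LTF HFD mice. Members had a median of 5 to 691 reads per library, so that Srsf9, Hnrnpll, Hnrnpa0 and Hnrnpd were measured on 10 reads or fewer in the median library. A few libraries stood apart. STF HFD mouse 80 had Paneth cell markers at 675620 CPM (the reads of a gene scaled to the size of its library) in sum and Dclk1, a defining tuft marker, at 33.8 CPM, STF RFD mouse 40 had 189340 reads with 41.7% from mitochondrial genes, and LTF RFD mouse 3 had 8609 genes detected, the fewest of the 45. Values below are CPM scaled by TMM when 1 gene is compared between mice, and TPM as deposited when genes are compared with each other.

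Among the members the hnRNPs reached the highest level per transcript length. Hnrnpk, which binds C-rich RNA, had a median of 239 TPM over the 45 libraries, Hnrnpa2b1, a broad RNA packaging and transport protein, 198 TPM, and Hnrnpf, which binds runs of G, 195 TPM. The highest SR gene was Srsf5 at 111 TPM, followed by Srsf3 at 65.1 TPM. Sf3b6, whose protein contacts the branch site adenosine, led the SF3B genes at 49 TPM, and Sf3a3 led the SF3A genes at 22.8 TPM. Esrp2 stood at 11.4 TPM and Esrp1 at 7 TPM, both below the median of the 41 members, 17.6 TPM. The lowest members were Hnrnpll, Hnrnpa0 and Hnrnpul2, between 1.58 and 1.73 TPM.

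**Figure D1:**
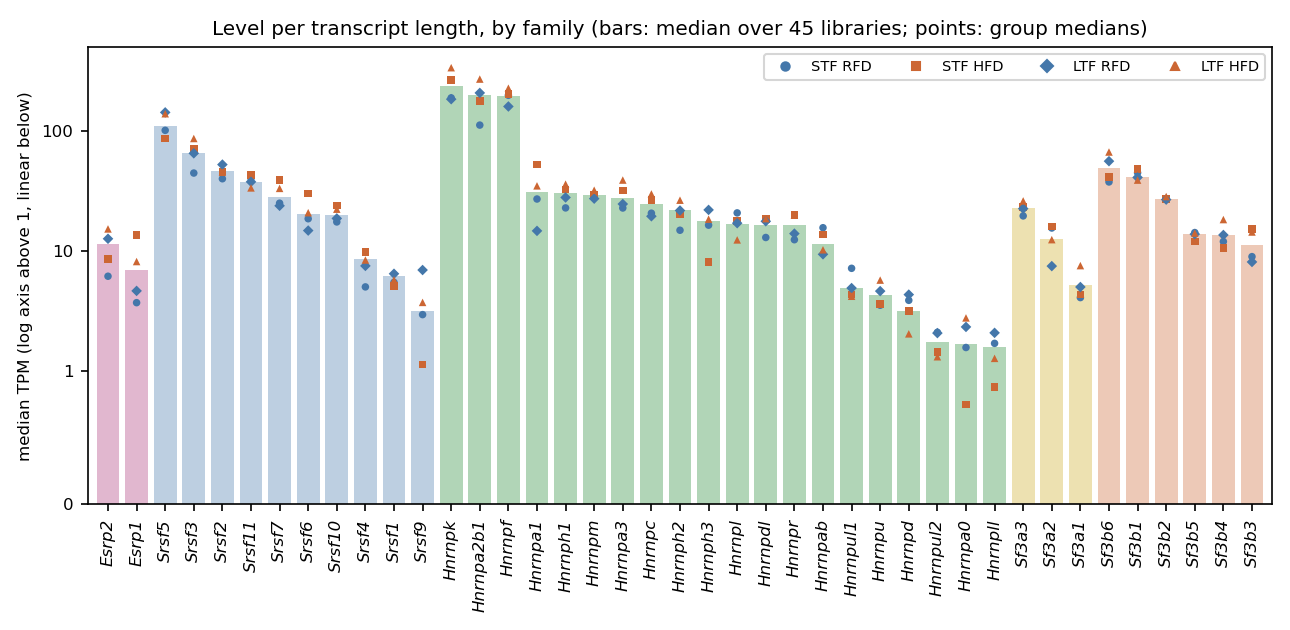
Median TPM of each member, ordered within its family (vertical axis logarithmic above 1 and linear below; bars, median over all 45 libraries; points, the median of each of the 4 groups). Hnrnpk, Hnrnpa2b1, Hnrnpf and Srsf5 lie above 100 TPM, and for Esrp1 the STF RFD point lies lowest and the STF HFD point highest of the 4.

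In the STF set 5 of the 41 members passed an adjusted p of 0.1 and all 5 were higher in HFD mice, against 3.07% of all genes tested that passed and 1.83% that passed and were higher (edgeR quasi-likelihood test with Benjamini-Hochberg adjustment over 14020 genes). They were Esrp1, Srsf6, Hnrnpa2b1, Hnrnph1 and Hnrnpa1. At an unadjusted p under 0.05 there were 13 members higher and 2 lower, against 9.86% and 8.32% of all genes. Of the 41, 30 had a log2 fold change above 0, against 47.3% of all genes, with a median over the members of 0.36 beside -0.05 over all genes. Other tests called more genes in all, DESeq2 12 members against 10.9% of all genes, a rank test after SAM-seq 15 against 14.1% and edgeR with adjusted deviances 10 against 11.4%, while limma on log2(TPM + 1) called 0 against 0.0642%. By limma 4 members had an unadjusted p under 0.05, against 12.3% of all genes.

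In the LTF set 0 members passed, against 0.728% of all genes, and the same edgeR test gave 5 members at an unadjusted p under 0.05, against 10.3% of all genes. DESeq2 called 0 there against 2.5% of all genes, with 7 at an unadjusted p under 0.05 against 12.2%, and the rank test called 5 against 4.51%. By limma 0 were called against 0.364%, with 6 at an unadjusted p under 0.05 against 9.72%. Above 0 lay 26 members, against 47.9% of all genes, with a median of 0.08 beside -0.03 over all genes.

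Esrp1 (chr4:11331933-11386783, minus strand, GRCm38 with GENCODE M21 as for all gene positions here) had the largest STF difference of the 41 members. It measured 4.47, 18.8 and 46.7 CPM (lowest, median and highest) in STF RFD mice and 35.4, 65.4 and 101 CPM in STF HFD mice. The groups overlapped, but 8 of 11 HFD mice lay above every RFD mouse and all 11 lay above the RFD median. The level was 2.96-fold higher in HFD mice (log2 fold change 1.57 ± 0.30 SE, edgeR quasi-likelihood test, Benjamini-Hochberg adjusted p = 0.0187). Esrp1 in the LTF set measured 2.92, 19.4 and 56.3 CPM in RFD mice and 6.66, 26.4 and 47.1 CPM in HFD mice. Those groups overlapped over nearly their whole range (log2 fold change 0.34 ± 0.36 SE, edgeR quasi-likelihood test, Benjamini-Hochberg adjusted p = 0.802).

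Esrp2 (chr8:106130319-106136974, minus strand), the close relative of Esrp1, measured 11, 23.3 and 70.2 CPM in STF RFD mice and 19.2, 34 and 105 CPM in STF HFD mice. Its groups overlapped, with 9 of 11 HFD mice above the RFD median, and the difference did not pass the test (log2 fold change 0.61 ± 0.33 SE, edgeR quasi-likelihood test, Benjamini-Hochberg adjusted p = 0.333). The LTF medians were 26.8 CPM on RFD and 38.6 CPM on HFD (log2 fold change 0.34 ± 0.27 SE, edgeR quasi-likelihood test, Benjamini-Hochberg adjusted p = 0.707), with 10 of 12 HFD mice above the RFD median.

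Among the 10 SR genes Srsf6 (chr2:162931528-162937121, plus strand), an SR protein that binds exonic splicing enhancers, was the member that passed. It measured 23.3, 50.6 and 130 CPM in STF RFD mice and 73.9, 128 and 215 CPM in STF HFD mice. All 11 HFD mice lay above the RFD median, and 3 lay above every RFD mouse, the highest of which was mouse 20 at 129.7 CPM. The level was 2.23-fold higher on HFD (log2 fold change 1.15 ± 0.26 SE, edgeR quasi-likelihood test, Benjamini-Hochberg adjusted p = 0.0422). LTF mice measured 29.2, 44 and 168 CPM of Srsf6 on RFD and 40, 64.6 and 142 CPM on HFD. The HFD mice there lay above the RFD median in 11 of 12 cases, while 3 RFD mice at 109.2, 135.9 and 168.4 CPM lifted the RFD mean to 68.7 CPM beside 68.6 CPM on HFD (log2 fold change 0.01 ± 0.29 SE, edgeR quasi-likelihood test, Benjamini-Hochberg adjusted p = 0.993).

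Srsf7, which promotes inclusion of exons and export of mRNA, stood closest to the threshold among the others. It measured 31.1, 61.1 and 191 CPM in STF RFD mice and 77.1, 153 and 250 CPM in STF HFD mice, with all 11 HFD mice above the RFD median (log2 fold change 0.95 ± 0.30 SE, edgeR quasi-likelihood test, Benjamini-Hochberg adjusted p = 0.111). Srsf10, known as an SR protein that represses splicing when it loses its phosphates, had medians of 50.3 CPM on RFD and 84.6 CPM on HFD in the STF set (log2 fold change 0.55 ± 0.25 SE, edgeR quasi-likelihood test, Benjamini-Hochberg adjusted p = 0.25). Both had no call in the LTF set, at log2 fold changes of 0.47 ± 0.37 SE for Srsf7 and 0.46 ± 0.32 SE for Srsf10. Srsf5, the SR gene with the highest TPM, gave medians of 150 CPM on RFD and 137 CPM on HFD in the STF set and 207 and 193 CPM in the LTF set (log2 fold changes -0.05 ± 0.19 SE and -0.07 ± 0.21 SE). Srsf9 was measured at 0 to 8.42 CPM in the STF set and 0 to 11.3 CPM in the LTF set, with a log2 fold change of -0.85 ± 0.67 SE in the STF set at a median of 5 reads per library. Over the family 7 of 10 genes lay above 0 in the STF set, 4 of them at an unadjusted p under 0.05, with a median of 0.39. Of all genes 47.3% lay above 0 there and 9.86% were higher at that threshold. In the LTF set 6 of 10 lay above 0, against 47.9% of all genes, with a median of 0.04.

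**Figure D2:**
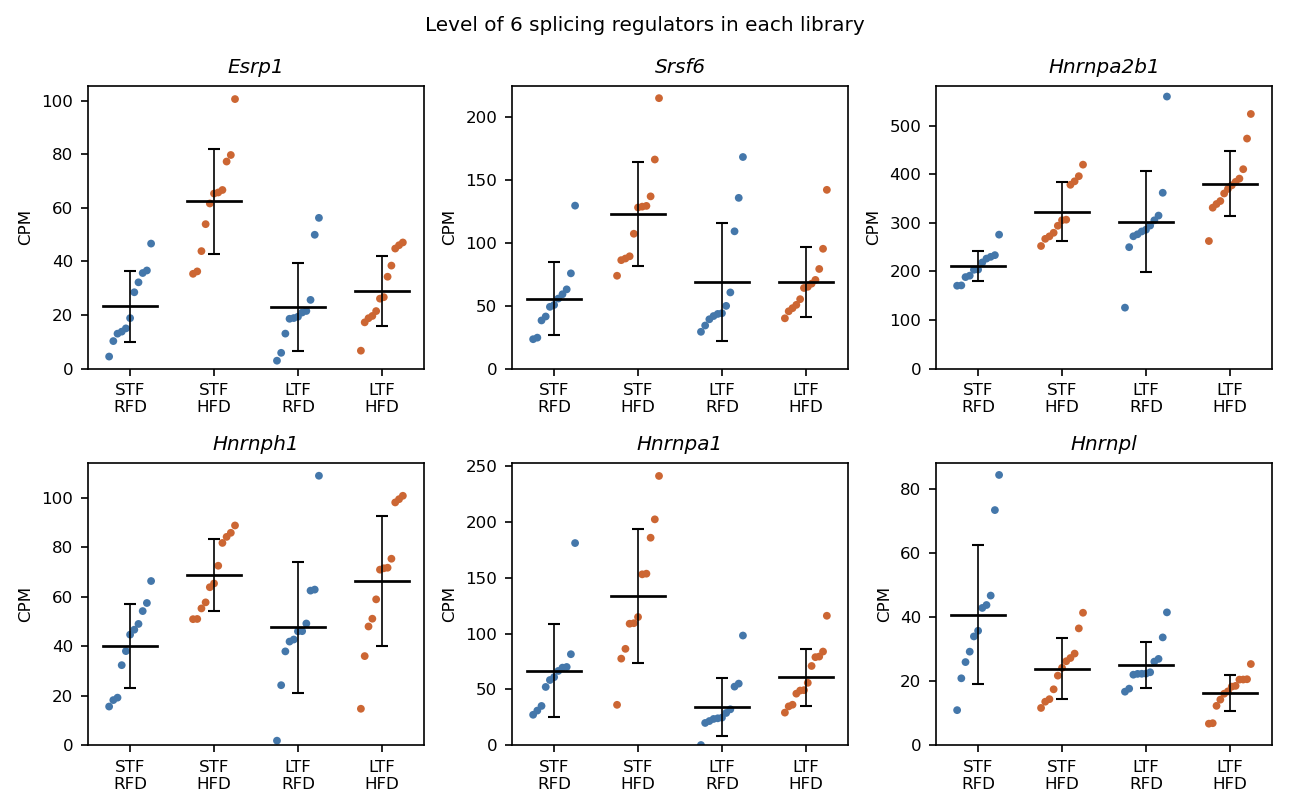
CPM of Esrp1, Srsf6, Hnrnpa2b1, Hnrnph1, Hnrnpa1 and Hnrnpl in each mouse (points, 1 per library, ordered by value within a group; horizontal line and bar, mean ± SD; blue RFD, orange HFD; 11, 11, 11 and 12 mice). For Esrp1 the STF HFD mice lie at 35.4 CPM or more while the STF RFD mice reach 46.7 CPM, and for Hnrnpl the HFD mean lies lower in both sets, with overlapping groups.

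The Hnrnp family held 3 of the calls. Hnrnpa2b1 (chr6:51460932-51469894, minus strand) measured 171, 204 and 276 CPM in STF RFD mice and 252, 305 and 420 CPM in STF HFD mice. The ranges overlapped by a narrow margin, with 8 of 11 HFD mice above every RFD mouse. It was 1.57-fold higher on HFD (log2 fold change 0.65 ± 0.17 SE, edgeR quasi-likelihood test, Benjamini-Hochberg adjusted p = 0.0687). Its LTF medians were 286 CPM on RFD and 374 CPM on HFD, with 11 of 12 HFD mice above the RFD median and no call (log2 fold change 0.31 ± 0.18 SE, edgeR quasi-likelihood test, Benjamini-Hochberg adjusted p = 0.578).

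Hnrnph1 (chr11:50376990-50386528, plus strand), which binds runs of G like its relative Hnrnpf, measured 15.6, 44.6 and 66.3 CPM in STF RFD mice and 50.9, 65.3 and 88.8 CPM in STF HFD mice. All 11 HFD mice lay above the RFD median (log2 fold change 0.79 ± 0.23 SE, edgeR quasi-likelihood test, Benjamini-Hochberg adjusted p = 0.0866). Hnrnpa1 (chr15:103240432-103246692, plus strand), a repressor of exon inclusion that competes with SR proteins, measured 27.1, 60.9 and 181 CPM on RFD and 36.1, 115 and 241 CPM on HFD. Here 10 of 11 HFD mice lay above the RFD median, the exception being mouse 64 at 36.1 CPM (log2 fold change 1.05 ± 0.31 SE, edgeR quasi-likelihood test, Benjamini-Hochberg adjusted p = 0.0894). Hnrnpa1 has many processed copies in the genome, and 47.7% of its nonzero counts were not whole numbers because RSEM divided reads among genes, so its level is less certain than those of Esrp1, Srsf6, Hnrnpa2b1 and Hnrnph1, for which all counts were whole.

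Hnrnpl and Hnrnpa3 had the smallest p of the Hnrnp genes in the LTF set. Hnrnpl, which binds CA repeats, measured 16.7, 22.3 and 41.4 CPM in LTF RFD mice and 6.66, 17.5 and 25.3 CPM in LTF HFD mice. It lay below the RFD median in 11 of 12 HFD mice there and in 9 of 11 in the STF set, at log2 fold changes of -0.61 ± 0.24 SE in the LTF set (unadjusted p = 0.0157, edgeR quasi-likelihood test, Benjamini-Hochberg adjusted p = 0.351) and -0.73 ± 0.30 SE in the STF set (edgeR quasi-likelihood test, Benjamini-Hochberg adjusted p = 0.188), so neither passed. Hnrnpa3 gave 43.8 CPM on RFD and 76 CPM on HFD in the LTF set, all 12 HFD mice lying above the RFD median (log2 fold change 0.51 ± 0.22 SE, edgeR quasi-likelihood test, Benjamini-Hochberg adjusted p = 0.43), with 75.6% of its nonzero counts not whole. Hnrnpk, the member with the highest TPM, measured 346 and 682 CPM at the medians of the STF set and 272 and 422 CPM at those of the LTF set, with 10 of 11 and 12 of 12 HFD mice above the RFD median (log2 fold changes 0.74 ± 0.25 SE and 0.49 ± 0.23 SE, edgeR quasi-likelihood test, Benjamini-Hochberg adjusted p = 0.129 and 0.462). Of the 20 Hnrnp genes 13 lay above 0 in each set, against 47.3% and 47.9% of all genes, with medians of 0.37 and 0.10 beside -0.05 and -0.03. Hnrnpul2, an RNA-binding relative of Hnrnpu named after its values were seen, lay below the RFD median in 11 of 11 STF HFD mice without passing (log2 fold change -0.83 ± 0.34 SE, edgeR quasi-likelihood test, Benjamini-Hochberg adjusted p = 0.192). In the STF set DESeq2 called Hnrnpl and Hnrnpul2 as lower, and edgeR with adjusted deviances called Hnrnpul2 as lower. These tests called 10.9% and 11.4% of all genes.

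The SF3 subunits gave 0 calls in either set by this test, against 3.07% of all genes in the STF set and 0.728% in the LTF set. In each set 1 of 9 had an unadjusted p under 0.05. At that threshold 9.86% of all genes were higher and 8.32% lower in the STF set, and 10.3% passed in the LTF set. DESeq2, adjusted deviances and the rank test did call Sf3b3 in the STF set, and the rank test called Sf3a1 in the LTF set. Sf3b3, a scaffold of the SF3B core, measured 17.6, 67.6 and 112 CPM in STF RFD mice and 40.8, 105 and 155 CPM in STF HFD mice. The groups overlapped, with 9 of 11 HFD mice above the RFD median (log2 fold change 0.74 ± 0.26 SE, edgeR quasi-likelihood test, Benjamini-Hochberg adjusted p = 0.137). Sf3b1, the largest SF3B subunit, which clamps the branch site, had medians of 260 and 296 CPM in the STF set and 206 and 191 CPM in the LTF set (log2 fold changes 0.17 ± 0.17 SE and -0.13 ± 0.16 SE). Sf3b6 had medians of 38.9 and 45.9 CPM in the STF set and 49.9 and 55.3 CPM in the LTF set, at log2 fold changes of 0.36 ± 0.24 SE and -0.11 ± 0.19 SE. Of the SF3A genes, whose proteins join the branch site complex with SF3B, Sf3a1 gave 21.9 CPM on RFD and 37.1 CPM on HFD in the LTF set (log2 fold change 0.71 ± 0.33 SE, unadjusted p = 0.0412, edgeR quasi-likelihood test, Benjamini-Hochberg adjusted p = 0.465) and 24.2 and 29.9 CPM in the STF set. Sf3a2 and Sf3a3 gave log2 fold changes of -0.06 ± 0.30 SE and 0.46 ± 0.33 SE in the STF set and 0.45 ± 0.37 SE and 0.29 ± 0.36 SE in the LTF set, and Sf3a1, Sf3a2 and Sf3a3 were each at 0 in LTF RFD mouse 3.

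**Figure D3:**
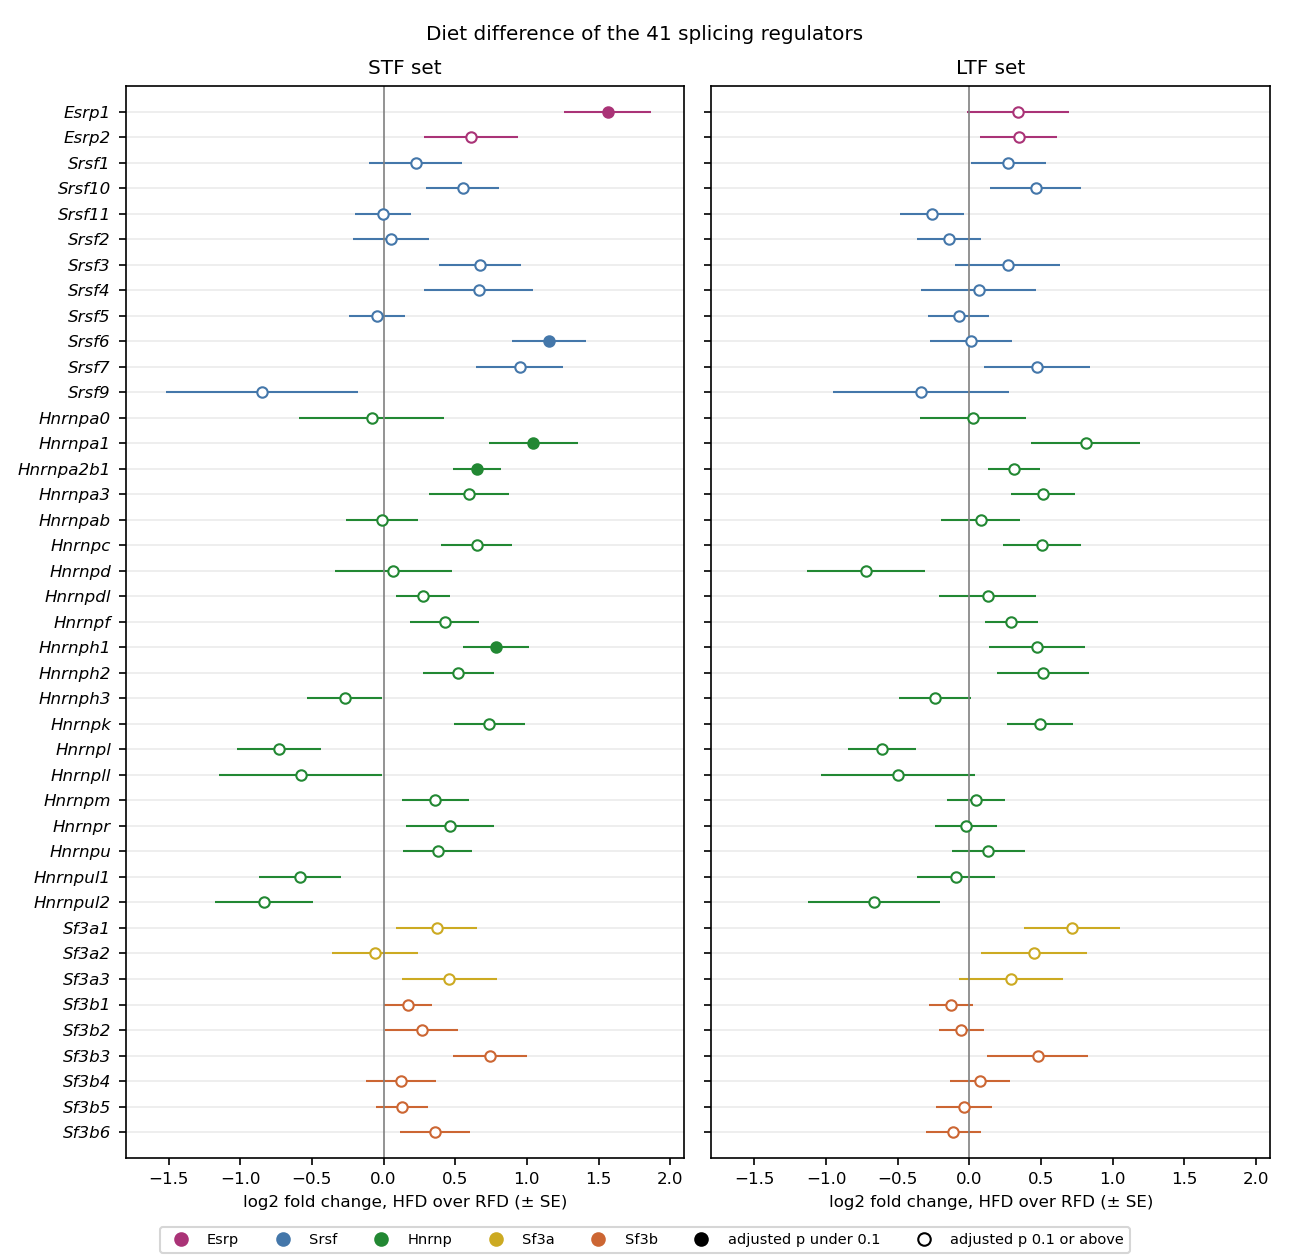
Log2 fold change of HFD over RFD for the 41 members in the STF set (left) and the LTF set (right), with bars of 1 SE (edgeR; colour, family; filled points, adjusted p under 0.1). The 5 filled points lie in the STF set, all to the right of 0, and Srsf5, Srsf9, Srsf11, Hnrnph3, Hnrnpl, Hnrnpll, Hnrnpul1 and Hnrnpul2 lie to the left of 0 in both sets without passing.

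Whether the diet difference itself differed between the sets was tested as an interaction over all 45 libraries. 0 of 41 members passed, against 0.00713% of all genes (1 of 14020), and 2 members had an unadjusted p under 0.05, against 3.27% of all genes. By DESeq2 0 members passed, against 1 of 14020 genes, and 3 had an unadjusted p under 0.05, against 574 of 14020 genes. The differences were 1.12 lower on the log2 scale in the LTF set for Srsf6 (-1.12 ± 0.38 SE, unadjusted p = 0.00525, edgeR quasi-likelihood test, Benjamini-Hochberg adjusted p = 1.00) and 1.19 lower for Esrp1 (-1.19 ± 0.48 SE, unadjusted p = 0.0163, edgeR quasi-likelihood test, Benjamini-Hochberg adjusted p = 1.00). A call in the STF set without one in the LTF set is therefore not shown to be a difference between them.

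When each of the 22 STF libraries was left out in turn, Esrp1 and Srsf6 passed in 22 of 22 fits, Hnrnpa2b1 in 11, Hnrnpa1 in 6 and Hnrnph1 in 5, and the number of members passing ran from 2 to 14. It was 14 without RFD mouse 20, 10 without HFD mouse 64 and 8 without HFD mouse 63, where 12.2%, 14.3% and 6.47% of all genes passed. It was 3 without RFD mouse 4, 22 or 40 or HFD mouse 5 or 50, and 2 without RFD mouse 1, 3, 21, 23, 24 or 84 or HFD mouse 6, 8, 62, 70 or 80, where 0.799% to 3.17% and 0.342% to 1.16% of all genes passed. Without both libraries that stood apart, RFD mouse 40 and HFD mouse 80, the 2 that passed were Esrp1 (log2 fold change 1.61 ± 0.32 SE, edgeR quasi-likelihood test, Benjamini-Hochberg adjusted p = 0.0263) and Srsf6 (0.97 ± 0.24 SE, edgeR quasi-likelihood test, Benjamini-Hochberg adjusted p = 0.0874), against 0.749% of all genes. Without RFD mouse 1 of the LTF set 4 members passed, against 4.63% of all genes, all of them hnRNPs and higher on HFD, namely Hnrnpk (0.77 ± 0.20 SE, edgeR quasi-likelihood test, Benjamini-Hochberg adjusted p = 0.0435), Hnrnpa1 (1.17 ± 0.36 SE, adjusted p = 0.0856), Hnrnpa3 (0.70 ± 0.22 SE, adjusted p = 0.0856) and Hnrnpf (0.51 ± 0.16 SE, adjusted p = 0.0959). That mouse had the highest share of reads on members of all 45, 0.622%, and the rest of the LTF leave-outs gave 0.

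Levels of cell type markers also differed between the diet groups at the median. Of 25 tuft markers, all tested, 1 lay above 0 in the STF set and 0 passed, and their sum ran from 5235 through 22729 to 34198 CPM in RFD mice and from 521 through 9471 to 33209 CPM in HFD mice. Of 10 stem or cycling markers, such as Lgr5, Olfm4 and Mki67, 10 lay above 0 and 3 passed, with sums of 324, 597 and 2702 CPM on RFD and 254, 1859 and 7432 CPM on HFD, and 10 of 11 HFD mice above the RFD median. Of 8 Paneth markers 8 lay above 0 and 0 passed, with sums of 61, 3103 and 123260 CPM on RFD and 124, 29737 and 675620 CPM on HFD. The same sums in the LTF set had medians of 24133 and 19030 CPM for tuft, 247 and 409 CPM for stem or cycling and 1554 and 12046 CPM for Paneth markers. Of the other lists in the STF set, 1 of 8 goblet markers passed as higher, 1 of 18 enterocyte markers as higher and 1 as lower, 1 of 3 tested M cell markers as higher, and 0 of 9 enteroendocrine, 7 T cell, 3 B or plasma cell and 1 eosinophil markers. Cd3d, Cd3g and Trac of T cells, Cd79a and Ms4a1 of B cells, Prg2 and Epx of eosinophils and Gp2 of M cells failed the read minimum. LTF mice had 3 of 9 enteroendocrine markers passing as lower, 2 of 18 enterocyte markers as higher and 1 as lower, and 0 of the rest.

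Srsf6 and Esrp1 were set beside these sums mouse by mouse. STF HFD mouse 64 had a tuft sum of 33209 CPM and the lowest stem or cycling sum of that group, 254 CPM, and its levels of 61.7 CPM for Esrp1 and 89.4 CPM for Srsf6 lay above the highest RFD mouse for Esrp1 and within the RFD range for Srsf6. STF RFD mouse 20 had the highest stem or cycling sum of its group, 2702 CPM, and the group's highest Srsf6, 129.7 CPM, Hnrnpa1, 181.2 CPM, and Hnrnpa2b1, 275.7 CPM. STF HFD mouse 80, which stood apart, had the highest stem or cycling sum of all, 7432 CPM, and the highest Srsf6, 215 CPM. With the stem or cycling level of each mouse as a covariate 0 members passed in the STF set, against 0.0214% of all genes, and 5 had an unadjusted p under 0.05, against 5.77%. The log2 fold change of Esrp1 was then 1.42 ± 0.30 SE (edgeR quasi-likelihood test, Benjamini-Hochberg adjusted p = 0.178), that of Srsf6 0.75 ± 0.22 SE (adjusted p = 0.461), that of Hnrnpa2b1 0.51 ± 0.17 SE (adjusted p = 0.663), that of Hnrnph1 0.64 ± 0.24 SE (adjusted p = 0.784) and that of Hnrnpa1 0.25 ± 0.22 SE (adjusted p = 0.912). With the tuft marker level as covariate Esrp1 at 1.51 ± 0.29 SE (edgeR quasi-likelihood test, Benjamini-Hochberg adjusted p = 0.0309) and Srsf6 at 0.86 ± 0.20 SE (adjusted p = 0.0866) passed, against 0.25% of all genes, and Hnrnpa1 stood at 0.51 ± 0.21 SE (adjusted p = 0.409). In bulk samples of this kind a change in the share of a cell type and a change in RNA per cell cannot be told apart.

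**Figure D4:**
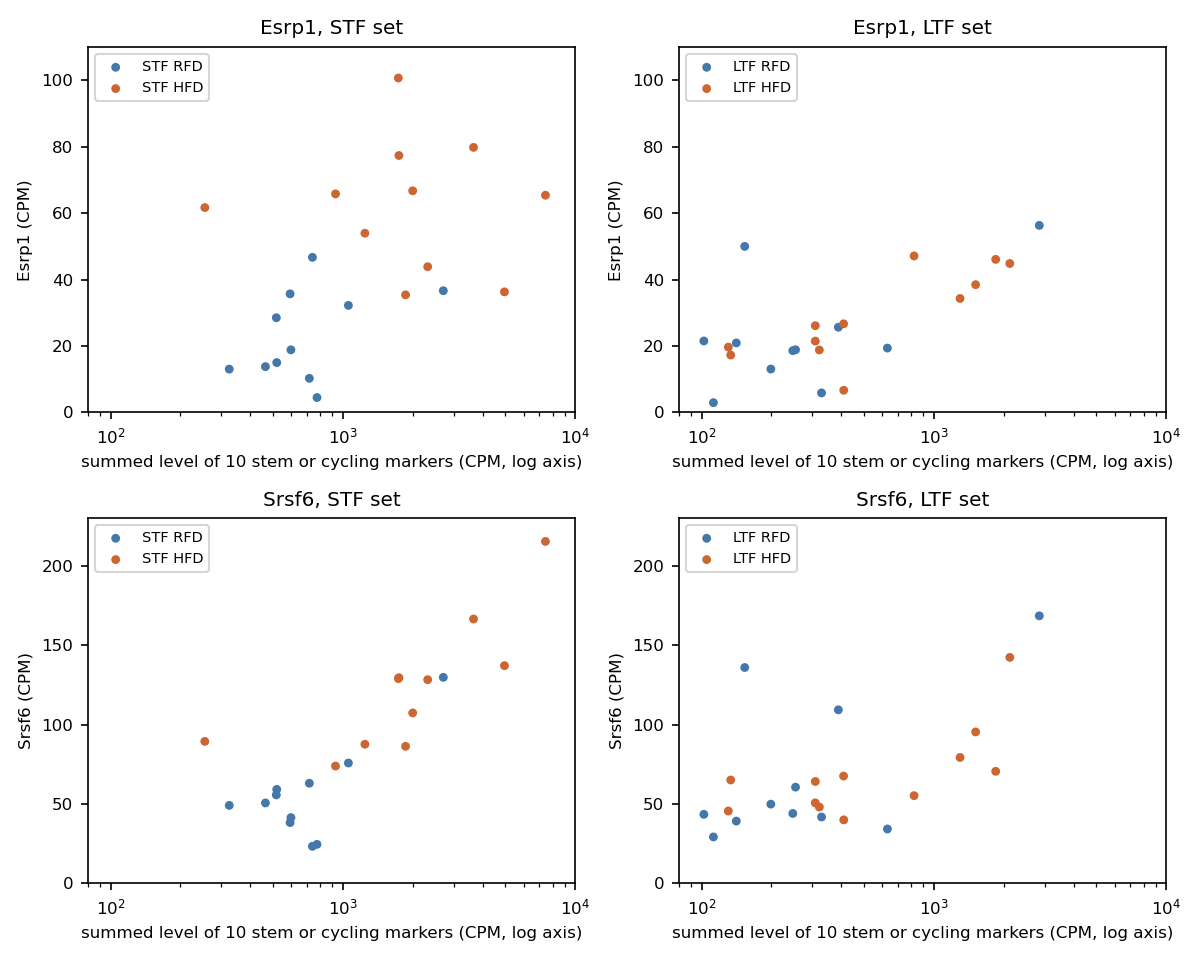
CPM of Esrp1 (top) and Srsf6 (bottom) in each mouse against the summed CPM of 10 stem or cycling markers (horizontal axis logarithmic; blue RFD, orange HFD; STF set left, LTF set right). In the STF set the HFD mice lie mostly to the right, and Esrp1 in HFD mouse 64, at a marker sum of 254 CPM, reads 61.7 CPM.

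Library numbers fall into 3 runs, which the labels do not explain, apart from STF RFD mouse 84 and LTF HFD mouse 65, which lie in none and are left out of these differences and of the fit with the runs as a batch term. Within each run the STF difference was above 0 for the 5 members. These 5 had been selected as higher on HFD over the STF libraries as a whole. Their signs by run are therefore a description and not separate support. STF mice numbered 1 to 8, the multiples of 10, and the others from 21 to 64 gave mean differences of log2(CPM + 1) of 1.69, 0.35 and 2.70 for Esrp1, 1.04, 1.05 and 1.49 for Srsf6, and 0.61, 0.63 and 0.58 for Hnrnpa2b1. Those for Hnrnph1 were 1.11, 0.85 and 0.68, and those for Hnrnpa1 1.11, 0.62 and 0.92. LTF mice gave differences for Esrp1 of 0.31, 0.63 and 1.04 and for Srsf6 of -0.44, 0.29 and 0.82, so that Srsf6 changed sign between the runs there.

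The summed level of the Esrp, Srsf, Hnrnp and Sf3b genes had a higher median on HFD on both scales and in both sets, given as a description without a test. Hnrnp genes together went from 752 to 970 TPM at the medians of the STF set and from 757 to 1099 TPM in the LTF set, with 8 of 11 and 12 of 12 HFD mice above the RFD median. Esrp genes went from 12.7 to 23.6 TPM and from 15.5 to 25.8 TPM, with 9 of 11 and 12 of 12 HFD mice above it. Sf3a genes went from 46.7 to 45.3 TPM in the STF set and from 33.2 to 44.4 TPM in the LTF set, while on the CPM scale their STF sum went from 94.9 to 123 CPM. All 41 together went from 1325 to 1537 TPM in the STF set, a ratio of 1.16 with 7 of 11 HFD mice above the RFD median, whereas the CPM sums gave 1.34, so the size of the family shift depended on the scale.

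The members were finally set beside 142 other genes of the splicing machinery, of which 140 were tested. Of these 5 were called higher and 1 lower in the STF set, or 4.29% of the 140, against 3.07% of all genes tested. Above 0 lay 87 of the 140, against 47.3% of all genes, with a median log2 fold change of 0.15 beside -0.05 over all genes. The Sm proteins, the ring at the core of most spliceosomal particles, held 8 of 8 genes above 0 with a median of 0.84, and Snrpe (1.02 ± 0.26 SE, edgeR quasi-likelihood test, Benjamini-Hochberg adjusted p = 0.0624) and Snrpg (0.96 ± 0.29 SE, adjusted p = 0.0899) passed. Snrpe went from a median of 23.3 CPM to 53.9 CPM and Snrpg from 20.8 to 40.7 CPM, with overlapping groups. In the tri-snRNP list Eftud2 (0.80 ± 0.23 SE, edgeR quasi-likelihood test, Benjamini-Hochberg adjusted p = 0.0836), a GTPase of the U5 particle, and Snu13 (0.89 ± 0.25 SE, adjusted p = 0.0811), which binds the U4 RNA, passed among 20 genes with a median of 0.43. Syncrip, an hnRNP Q protein whose symbol lies outside the naming rule, passed at 1.05 ± 0.30 SE (edgeR quasi-likelihood test, Benjamini-Hochberg adjusted p = 0.0811), from 16.9 to 47.2 CPM at the medians. Syf2, a factor of the catalytic spliceosome, fell from 61.7 to 38.5 CPM (log2 fold change -0.81 ± 0.22 SE, edgeR quasi-likelihood test, Benjamini-Hochberg adjusted p = 0.072).

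The genes that modify or resemble SR proteins lay mostly below 0. Of 9 SR protein kinases and phosphatase genes 2 lay above 0 in the STF set, with a median of -0.10, and of 18 SR-related genes 5, with a median of -0.13. Of all genes 47.3% lay above 0, with a median of -0.05. From either list 0 passed, against 3.07% of all genes. At an unadjusted p under 0.05 the first list had 0 higher and 2 lower, and the second 1 higher and 6 lower. All genes had 9.86% higher and 8.32% lower at that threshold. In LTF mice 0 of the 140 passed by this test, against 0.728% of all genes, with 14 at an unadjusted p under 0.05, against 10.3% of all genes. The smallest p were those of Snrpg (0.70 ± 0.24 SE, unadjusted p = 0.00669, edgeR quasi-likelihood test, Benjamini-Hochberg adjusted p = 0.255) and Scaf1 (-0.66 ± 0.23 SE, unadjusted p = 0.00769, adjusted p = 0.269). The Sm proteins had a median of 0.29 there, with 7 of 8 above 0.

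**Figure D5:**
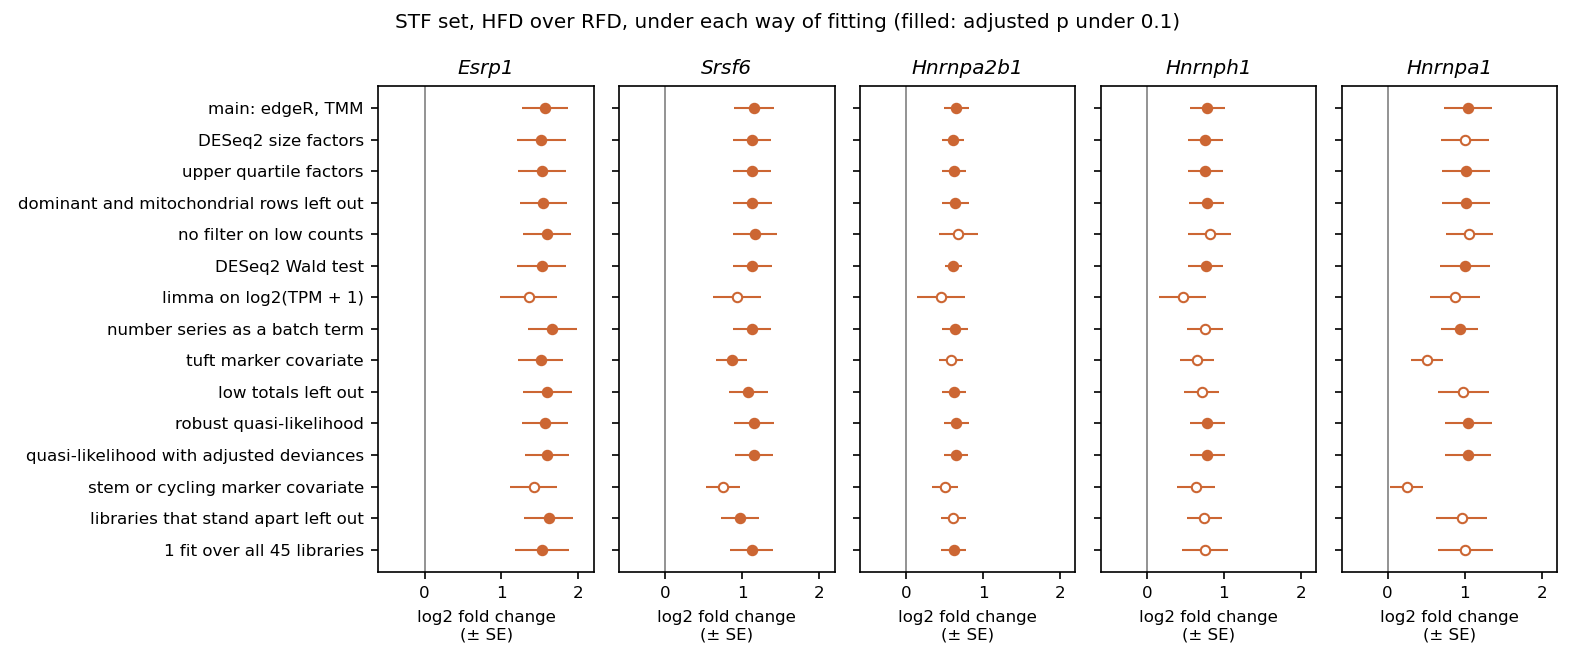
Log2 fold change of HFD over RFD in the STF set for the 5 members that passed, under the fit reported and 14 other ways of fitting (bars, 1 SE; filled, adjusted p under 0.1). Every point lies to the right of 0, Esrp1 and Srsf6 are filled in all but limma on log2(TPM + 1) and the stem or cycling covariate, and Hnrnpa1 with that covariate lies at 0.25.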

How the data were processed

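RNA of sorted small intestinal tuft cells was sequenced by Smart-seq2 with Nextera XT libraries in 45 mice. The authors trimmed reads with Cutadapt 1.15, aligned them with STAR 2.6.0 to GRCm38 and deposited RSEM expected counts and TPM per gene (the annotation release is not given in the sources used here). The library preparation does not mark strand, so reads of overlapping genes cannot be told apart. A deposited FPKM table and 24 columns without a labelled sample were not used.

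Expected counts were rounded (8.79% of values above 0 were not whole) and 14020 genes with more than 5 reads in at least 6 libraries were tested with edgeR 4.0.16 (TMM, glmQLFit and glmQLFTest, robust off), HFD against RFD within each set and the interaction over both, with Benjamini-Hochberg adjustment over all genes and a threshold of 0.1. TPM were used as deposited for levels between genes. DESeq2 1.42.0, limma 3.58.1 on log2(TPM + 1), a rank test after SAM-seq (20 resamples, 100 permutations), other scalings, covariates and left-out libraries were alternatives, run in R 4.3.3. The scripts were tested on simulated counts. No pair of libraries matched within counting noise (the lowest chi-square per degree of freedom within a group was 5.74). Intervals and errors rest on the spread between mice, and the weighting by cell proportions in the study was not repeated. The members, lists and tests were chosen with earlier results of these data known. Members were named with values if they were Esrp genes, passed the threshold (otherwise the 2 smallest p per family and set), had the highest TPM of their family or lay next to the read minimum, and of the other splicing genes the 3 smallest p per direction or, with none passing, the 2 smallest.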

Additional observations from a re-analysis of the deposited data

Results flagged for a closer look

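For Srsf6 and Esrp1 the diet difference in the LTF set was set against that in the STF set in a single model, and both gave an unadjusted p under 0.05 in the interaction term. The value for Srsf6 was -1.12 on the log2 scale (± 0.38 SE, unadjusted p = 0.00525) and that for Esrp1 was -1.19 (± 0.48 SE, unadjusted p = 0.0163). With adjustment over 14020 genes neither passed (edgeR quasi-likelihood test, Benjamini-Hochberg adjusted p = 1.00 for both). Across the other fits the interaction of Srsf6 ran from -1.27 with the replicate block to -0.84 without the libraries that stood apart, and that of Esrp1 from -1.29 with the stem or cycling covariate to -0.88 with limma on log2(TPM + 1). In the LTF set 3 RFD mice (1, 3 and 4) had Srsf6 above 100 CPM, of which mouse 1 also had the highest stem or cycling marker sum of its group, 2839 CPM, and mouse 3 one of 153 CPM. The part of these libraries in the difference was not tested.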

How the results depend on the processing

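In the fit reported 5 of the 41 members passed in the STF set, against 3.07% of all genes. With no filter on low counts 2 of 41 passed, against 260 of 32545 genes. The tuft marker covariate gave 2 (against 0.25%), and leaving out libraries of under 500000 reads gave 3 (against 254 of 14020 genes). There were 0 by limma on log2(TPM + 1) (against 0.0642%), 12 by DESeq2 (10 higher and 2 lower, against 10.9% of all genes) and 15 by the rank test after SAM-seq (all higher, against 14.1%). Chosen after seeing the data, adjusted deviances gave 10 (against 11.4%), the stem or cycling covariate 0 (against 0.0214%) and leaving out the libraries that stood apart 2 (against 0.749%). Leaving out 1 library at a time gave 2 to 14 in the STF set, where 0.342% to 14.3% of all genes passed, and 0 to 4 in the LTF set (0.449% to 4.63%). In the LTF set the rank test gave 5 (Sf3a1, Hnrnpa2b1, Hnrnpk, Hnrnpa1 and Hnrnpc, against 4.51%), and every other fit of all libraries 0. The interaction gave 0 in all fits. By the rule used, 78 of 80 comparisons of family medians were classed as the same and 2 as moved. Family medians carry no error of their own here, so these classes do not measure how stable the medians were. The exceptions were the Hnrnp median in the STF set at 0.12 with the tuft covariate and 0.11 with the stem or cycling covariate, from 0.37. The Srsf median in the STF set, 0.39 in the fit reported, ran from 0.05 to 0.40 and was not among the exceptions. The medians of Sf3a in the STF set and of Srsf, Hnrnp and Sf3b in the LTF set changed sign in at least 1 of these fits, at ranges of -0.04 to 0.37, -0.09 to 0.20, -0.00 to 0.14 and -0.10 to 0.02. In the STF set none of the 5 members that passed changed sign in these fits, whereas Srsf6 in the LTF set ran from -0.21 to 0.22. The cause of these changes was not tested. Equal library numbers in the sets did not mark pairs, since 2 of 16 same-numbered pairs deviated together (correlation over 0.1, range -0.38 to 0.38) and 1 matched its own number best, and a replicate block left the interaction at 0 members. The median of all genes in the interaction was 0.06, and -0.11 with the block. Depth limited Srsf9, Hnrnpll, Hnrnpa0 and Hnrnpd most.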
